A study of Mus musculus with 3 samples.

Results

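A set of 3081 genomic regions carried a Notch2 peak in one of a pair of replicate immunoprecipitations and none in the other. The tissue was whole embryonic kidney of the mouse at E16.5, and Notch2 occupancy was measured by ChIP-seq, the sequencing of DNA fragments recovered with an antibody, in 2 replicates made with an anti-Notch2 antibody from Cell Signaling Technology, beside 1 input sample of the same tissue and stage that was not analysed here. The labels name no strain, genotype or treatment, and whether the replicates were separate litters or pools is not stated in them, so that differences between them may be technical. Each replicate had its own deposited list of peaks, that is, of regions where sequenced fragments were in excess, with positions on the mm9 build and no height, score or read count. The regions described here were chosen by the peak positions themselves, as the peaks of replicate 2 that overlapped no replicate 1 peak by 1 bp or more, after exact repeated rows had been dropped. They are called unshared replicate 2 peaks, and the 9504 remaining replicate 2 peaks are called shared.

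Notch2 is one of the mammalian Notch receptors, which bind ligands of the Jagged and Delta-like families on neighbouring cells. Ligand binding leads to cleavage of the receptor, and the freed intracellular domain enters the nucleus, where it has no DNA contact of its own and joins RBPJ, which reads the sequence, and a Mastermind-like co-activator. In the developing kidney, Notch2 is known for its part in the formation of the proximal nephron, podocytes and proximal tubule included. Whole kidney at this stage mixes nephron progenitors, forming and differentiating nephrons, the collecting duct tree, stroma and vessels, so a peak list gives positions bound in some of these cells without saying which. No annotation or sequence of mm9 was used here, and regions are therefore given by position, without genes.

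The unshared peaks made up 24.5% of the 12585 replicate 2 peaks (95% Wilson interval 23.7 to 25.2%), which is the background share against which every share below is read. In the other direction 67.0% of the 28651 replicate 1 peaks had no replicate 2 peak. The unshared replicate 2 peaks covered 1.74 Mb, or 20.7% of the 8.41 Mb covered by all replicate 2 peaks. All peaks came from 1 library per replicate, so peaks are not replicates of a condition. No test across peaks was made, and intervals cover counting error. Read depth is unknown, and whether these sites fell short of a threshold in replicate 1 or were not bound there cannot be told apart from the lists.

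The overlap rule cut the list where few peaks lay. Of the shared peaks, 10 overlapped their replicate 1 counterpart by less than 100 bp, and the median overlap was 556.5 bp. Of the unshared peaks, 13 lay within 100 bp of a replicate 1 peak, and 70 (2.27%) lay within 500 bp. The 3 unshared peaks nearest the threshold were at chr15:10602604-10603103, 7 bp from a replicate 1 peak, at chr10:6785171-6785819, at 13 bp, and at chr1:23497538-23498037, at 26 bp. The 3 shared peaks with least overlap were at chr3:62084735-62085643, with 27 bp of overlap, at chr15:63874894-63875393, with 40 bp, and at chr10:46504794-46505293, with 44 bp. Of these 6 peaks on either side of the rule, 4 measured 500 bp.

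Under the 1 bp rule, most unshared peaks lay far from any replicate 1 peak compared with their own width. The median distance between edges was 15.7 kb (95% order-statistic interval 14.4 to 16.6 kb), with quartiles of 4.96 and 44.6 kb. Within 1 kb of a replicate 1 peak lay 186 unshared peaks, or 6.04% (5.25 to 6.93%), and within 5 kb lay 773, or 25.1% (23.6 to 26.7%). Beyond 100 kb lay 322, or 10.5%, and 7 lay beyond 1 Mb. These distances depend on the rule. When a shared peak had to overlap by 50% of both peaks, 32.2% lay within 1 kb of replicate 1 and the median was 6.57 kb, and with centres required within 250 bp the values were 31.7% and 6.72 kb. Under both alternatives, the peaks added to the unshared set still overlapped a replicate 1 peak and were counted as having no distance to it. These shifts were therefore set by construction. Shared replicate 2 peaks gave a yardstick when each was measured to the nearest replicate 1 peak that did not overlap it, with a median of 11.7 kb (11.2 to 12.2 kb) and quartiles of 3.95 and 33.0 kb. By median and quartiles, an unshared peak was thus somewhat farther from its nearest replicate 1 peak than a shared peak was from the next one along. At short range the order was the other way. Within 1 kb lay 6.04% of unshared peaks against 3.90% (3.53 to 4.31%) of shared ones. Unshared replicate 1 peaks, which were measured against the shorter list, lay a median of 56.3 kb (54.6 to 58.1 kb) from replicate 2.

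**Figure D1:**
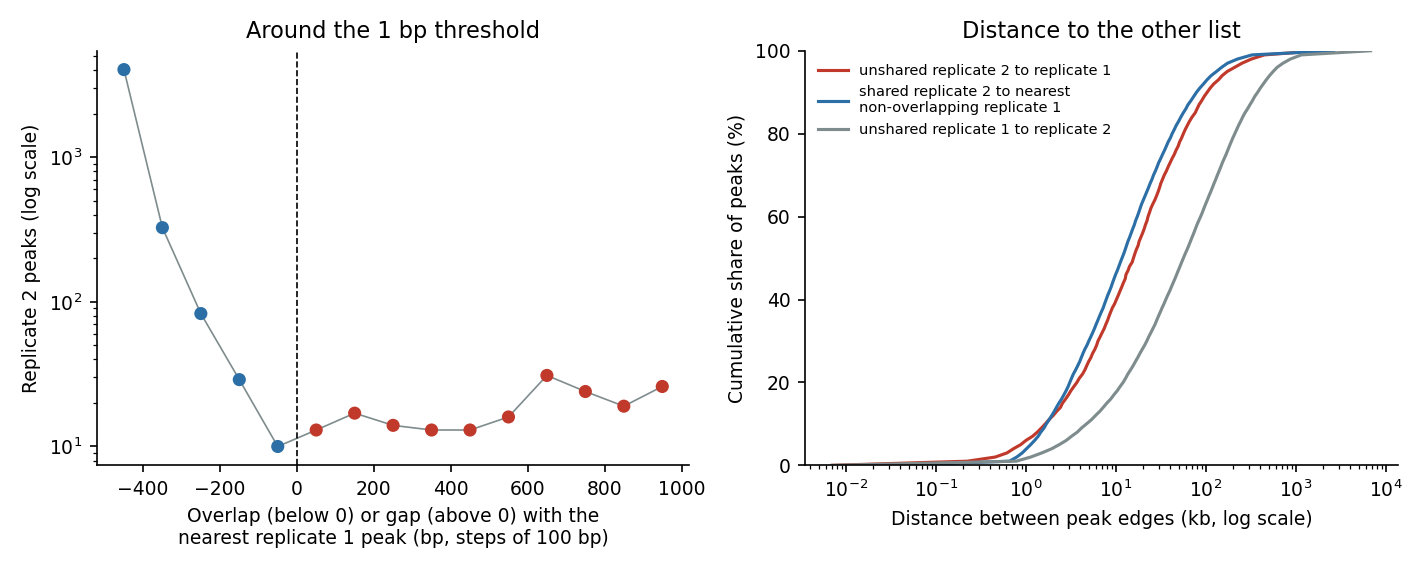
Left, numbers of replicate 2 peaks (log scale) in steps of 100 bp of overlap with (blue) or gap to (red) the nearest replicate 1 peak, with the 1 bp threshold as a dashed line; overlaps above 500 bp are not drawn, and the lowest count, 10, lies just inside the threshold. Right, cumulative share of peaks by distance to the other list on a log scale, with medians of 15.7 kb for unshared replicate 2 peaks (red), 11.7 kb for shared ones (blue) and 56.3 kb for unshared replicate 1 peaks (grey).

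Few unshared peaks had a very close neighbour in the other list. Peaks of the same list never lay closer to each other than 500 bp, so a gap below 500 bp occurred between the lists alone. Among the 70 unshared peaks with such a gap, the nearest replicate 1 peak was itself unshared in 58 (82.9%), and in all 58 each peak was the nearest of the other list to its partner. This share has a geometric part, since a replicate 1 peak that overlaps another replicate 2 peak has little room for a further replicate 2 peak beside it. With a gap of 500 bp to 1 kb, 56 of 116 nearest replicate 1 peaks were unshared (48.3%), and with a gap of 1 to 2.5 kb 124 of 269 were (46.1%). The nearness was mutual for all 56 of the former and for 120 of the latter, so it was not particular to the closest gaps. The 58 close pairs would count as 1 site each under a rule of nearness in place of overlap.

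Many of the unshared peaks farther than 500 bp from replicate 1 had as their nearest neighbour a site found in both replicates. Over all 3081, the nearest replicate 1 peak was a shared one in 45.6% (43.8 to 47.3%), whereas shared peaks made up 33.0% of replicate 1 (9469 of 28651). The share was 52.8% (47.3 to 58.3%) at gaps of 2.5 to 5 kb and fell to 39.0% (35.4 to 42.7%) at gaps over 50 kb. Within 100 kb on each side of unshared replicate 2 peaks, a mean of 1.96 of 4.27 replicate 1 peaks were shared. Around shared replicate 2 peaks the means were 2.20 of 4.93, and around unshared replicate 1 peaks 1.34 of 4.45. In this measure the mix was thus similar for both kinds of replicate 2 peak. Within their own list, 538 unshared peaks (17.5%; 16.2 to 18.8%) had another replicate 2 peak within 5 kb, against 20.8% (20.02 to 21.7%) of the shared peaks. That neighbour was unshared too for 27.1% (23.6 to 31.0%) of these unshared peaks and for 19.9% (18.2 to 21.7%) of the shared ones. The background of 24.5% covers peaks without such a neighbour too, and it lies inside the interval of the unshared value. Among peaks with a neighbour within 5 kb, 538 were unshared and 1979 shared. Within 1 kb the neighbour was unshared for 34.7% (26.0 to 44.5%) of 98 unshared peaks and for 21.2% (17.0 to 26.2%) of 306 shared ones. Within 5 kb the intervals of the unshared and shared values did not overlap, within 1 kb they overlapped, and 72.9% of the neighbours within 5 kb of an unshared peak were shared. Peaks that are each other's nearest neighbour were each counted, so these counts are not independent and the intervals are no test.

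The surroundings of unshared peaks held somewhat fewer peaks of both replicates than those of shared peaks. Within 100 kb on each side of an unshared peak there were a mean of 4.27 replicate 1 peaks and 2.57 other replicate 2 peaks. Around shared replicate 2 peaks, without the counterpart itself, the means were 4.93 and 2.85, and around unshared replicate 1 peaks they were 4.45 other replicate 1 peaks and 1.72 replicate 2 peaks. No replicate 1 peak lay in this range for 10.5% (9.51 to 11.7%) of unshared and 7.34% (6.84 to 7.89%) of shared replicate 2 peaks. No other replicate 2 peak lay in it for 22.5% (21.0 to 24.0%) and 19.5% (18.7 to 20.3%). At 1 Mb on each side the medians were 28 replicate 1 peaks for unshared peaks and 31 for shared ones, and 14 and 15 replicate 2 peaks.

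Unshared peaks were narrow. Their median width was 500 bp, with quartiles of 500 and 628 bp, against 630 bp and quartiles of 500 and 776 bp for shared peaks. The minimum width of 500 bp was shown by 2211 of them, or 71.8% (70.1 to 73.3%), against 40.2% (39.2 to 41.2%) of shared peaks. A width of 1000 bp or more was found in 57, or 1.85% (1.43 to 2.39%), against 10.8% (10.2 to 11.4%). Read the other way, 36.7% (35.5 to 37.9%) of 500 bp peaks were unshared, 18.3% (17.1 to 19.7%) of those of 625 to 749 bp, 8.67% (7.51 to 9.99%) of those of 750 to 999 bp and 5.55% (3.91 to 7.81%) of those of 1000 to 1249 bp. A wider peak meets a 1 bp rule more easily, and whether part of this gradient comes with the rule was not tested. Under the 1 bp rule the unshared share of 500 bp peaks exceeded that of peaks of 722 bp or more by 28.7 percentage points. This difference was 28.1 points with replicate 1 peaks widened by 500 bp. It was 29.7 points with 50% overlap of both peaks and 19.5 with centres within 250 bp.

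The fall of the unshared share with width was stepped and not smooth. Within the class above 500 bp the share rose from 17.4% (16.0 to 18.9%) at 625 to 649 bp to 24.8% (19.3 to 31.1%) of the 202 peaks of 700 to 749 bp. It then dropped to 9.01% (7.22 to 11.2%) of the 799 peaks of 750 to 799 bp. The same step at 750 bp was present in replicate 1, where 82.7% of peaks of 700 to 749 bp and 53.9% of those of 750 to 799 bp were unshared. The place in the file stepped as well, with a median place of 6530 for replicate 2 peaks of 700 to 749 bp and 2679 for those of 750 to 799 bp. Within the first 25% of the file the shares on both sides of the step were 16.7% (3 of 18; 5.84 to 39.2%) and 3.63% (17 of 468; 2.28 to 5.74%), and in the second 25% 18.4% (11.3 to 28.6%) and 10.8% (7.499 to 15.2%). In the third 25% they were 25.4% (16.49 to 36.9%) and 33.8% (23.9 to 45.4%), and in the last 39.0% (16 of 41; 25.7 to 54.3%) and 44.4% (4 of 9; 18.9 to 73.3%). The wider class was thus lower in the first 50% of the file and higher in the last 50%, and the intervals overlapped in each part except the first 25%. These width limits were chosen after the values had been seen.

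**Figure D2:**
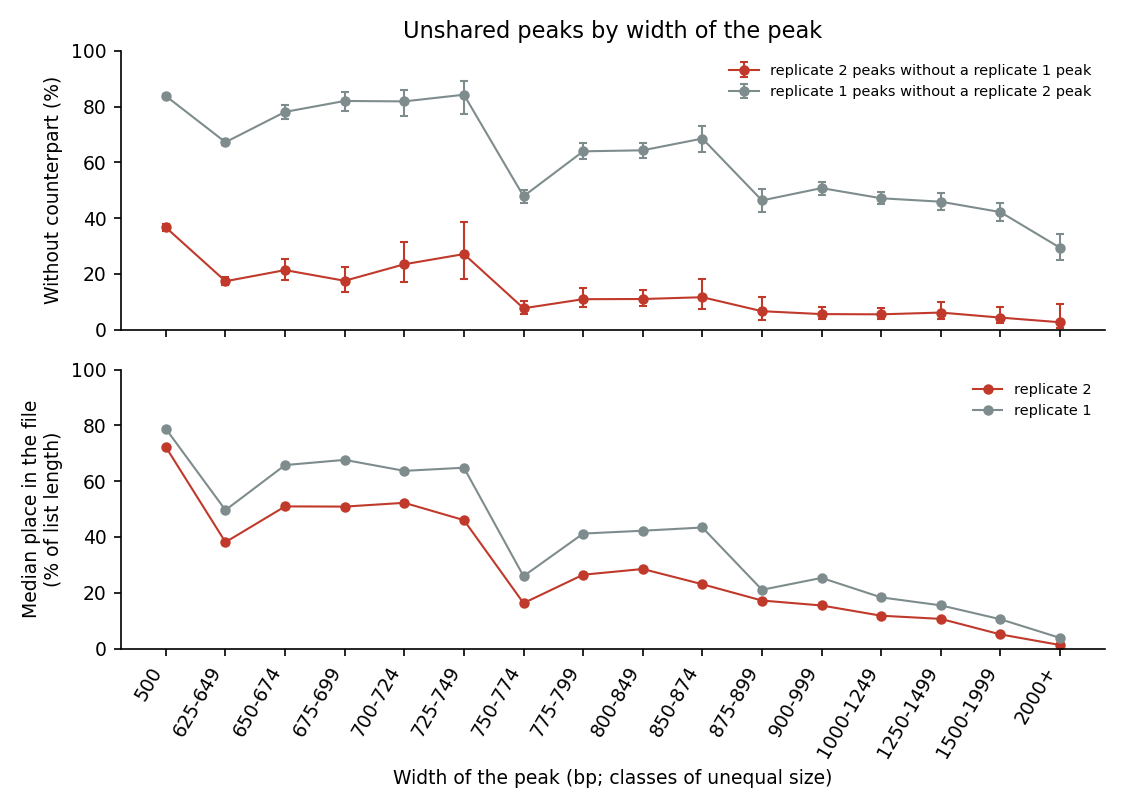
Top, share of peaks without a counterpart in the other list by width class, with 95% Wilson intervals, for replicate 2 (red) and replicate 1 (grey). Bottom, median place of the same classes in the file as a percentage of the list length; both panels drop at 750 bp in both lists, where the unshared share of replicate 2 goes from 27.1% (725 to 749 bp) to 7.71% (750 to 774 bp).

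Place in the file separated unshared from shared peaks over its whole length. What orders the file is not given in the sources used here, and its first peaks are the wide ones. Unshared peaks had a median place of 9002 of 12585, with quartiles of 6419 and 10961, against 5276 and quartiles of 2518 and 8510 for shared peaks. None of the first 100 peaks was unshared, which allows a share of up to 3% when 3 counts are taken as the limit of a count of 0, and up to 3.70% by the Wilson interval. The first unshared peak stood at place 132. Among the first 1000 peaks 43 were unshared (4.30%; 3.21 to 5.74%), and among the last 1000 there were 485 (48.5%; 45.4 to 51.6%). By deciles of the list the share went from 4.45% (3.44 to 5.74%) in the first to 20.03% (17.9 to 22.3%) in the fifth and 47.7% (44.9 to 50.4%) in the last, and it was higher in each decile than in the one before.

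With place held, 500 bp peaks had the higher unshared share in all 4 parts of the file of 25% each, and with width held the share rose from part to part for wider peaks and, for 500 bp peaks, in the later part of the file. In the first 25% of the file 22.5% (17.1 to 29.0%) of 500 bp peaks and 5.68% (4.90 to 6.57%) of wider peaks were unshared. In the second 25% the values were 23.5% (21.1 to 26.2%) and 13.2% (11.8 to 14.7%), and in the third 34.5% (32.5 to 36.6%) and 25.4% (22.89 to 28.005%). In the last 25% they were 44.4% (42.5 to 46.2%) and 36.0% (31.4 to 40.7%). Among the 15 peaks of 500 bp that stood in the first decile, 7 were unshared (46.7%; 24.8 to 69.9%), a group singled out after its values were seen. The shares of 500 bp peaks in the next 4 deciles were 24.2, 18.2, 23.4 and 24.5%, with no steady rise over the first 50% of the file. Distance to replicate 1 also went with place. The 735 unshared peaks of the first 50% of the file lay a median of 11.2 kb (9.56 to 13.4 kb) from replicate 1 and the 2346 of the last 50% lay 17.0 kb (15.7 to 18.3 kb) from it.

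**Figure D3:**
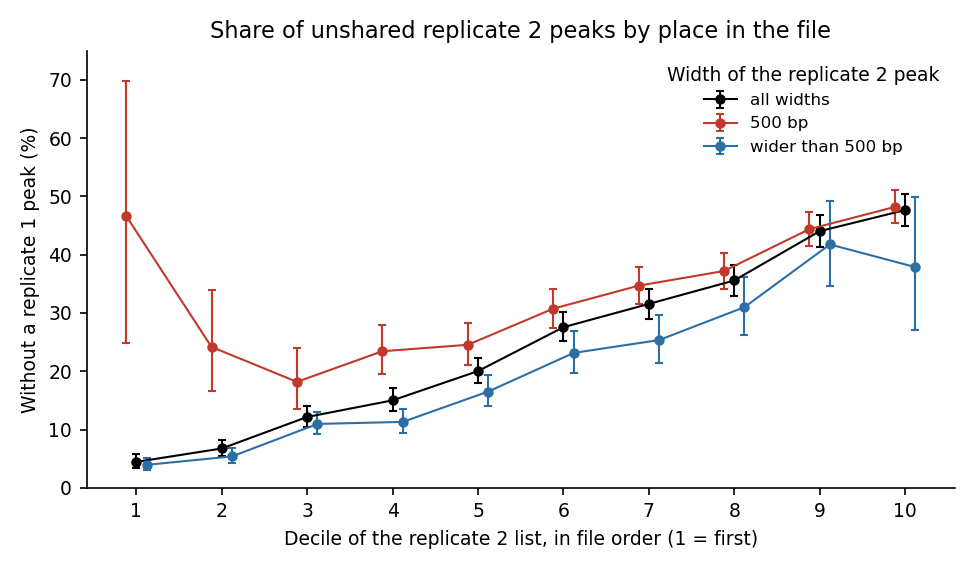
Share of replicate 2 peaks without a replicate 1 peak in each decile of the replicate 2 file, for all widths (black), 500 bp peaks (red) and wider peaks (blue), with 95% Wilson intervals. The share over all widths goes from 4.45% in the first decile to 47.7% in the last, and the red point of the first decile rests on 15 peaks.

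Wide unshared peaks and those placed early in the file were the exceptions to this pattern, and they are given by name. The widest, at chr6:50615154-50618102 (2949 bp), was the ninth widest of all replicate 2 peaks, stood at place 160 and lay 52.5 kb from a replicate 1 peak of 669 bp. Its row occurred 4 times in the file. The second, chr6:50933431-50935535 (2105 bp), lay 0.965 kb from a shared replicate 1 peak of 1791 bp and 0.934 kb from a shared peak of its own list, so that it flanked a site found in both. The peak chr4:82791377-82793223 (1847 bp, place 190) lay 19.5 kb from a shared replicate 1 peak that stood at place 184 of that list.

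The other wide ones were at chr13:5712485-5714402 (1918 bp), at chr8:45886041-45887690 (1650 bp), at chr10:73842149-73843763 (1615 bp), at chr10:16598602-16600186 (1585 bp), at chr6:30475584-30477187 (1604 bp), at chr15:7766744-7768333 (1590 bp) and at chr2:43995968-43997536 (1569 bp). Of the 10 widest, 6 lay within 5 kb of a replicate 1 peak, with a median distance of 3.63 kb and a range of 0.965 to 73.2 kb. The nearest replicate 1 peak was shared in 3 of the 10, against 45.6% over all unshared peaks. For the peak of chromosome 15 it measured 500 bp and stood at place 28432, near the end of the replicate 1 list, and for the peak of chromosome 13 it measured 625 bp and stood at place 27866. The 57 unshared peaks of 1000 bp or more lay a median of 8.88 kb (4.84 to 16.8 kb) from replicate 1, against 16.2 kb (15.2 to 17.4 kb) for those of 500 bp.

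The 10 unshared peaks placed first in the file stood between places 132 and 355 and measured 500 to 2949 bp. The first was at chr14:106296227-106297002 (776 bp), and it lay 1.55 kb from an unshared replicate 1 peak. The peak chr15:103135747-103136377 (631 bp, place 234) lay 0.863 kb from a shared replicate 1 peak of 1377 bp. The last of the 10, at chr11:72223975-72224474, measured 500 bp and lay 8.90 kb from replicate 1. The remaining ones were at chr17:4907950-4908575, at chr17:75506928-75507790, at chr18:33623358-33623984, at chr18:52967738-52969053, at chr5:116181905-116182789, and the peaks of chromosomes 6 and 4 that also were among the widest. For 6 of the 10 the nearest replicate 1 peak was a shared one, and for 9 the nearest replicate 2 peak was shared. Over all unshared peaks these shares were 45.6% and 73.7%.

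Rows repeated in the file were mostly those of wide peaks, unshared or shared. Of the unshared peaks 36 (1.17%; 0.845 to 1.61%) were listed more than once, against 404 (4.25%; 3.86 to 4.68%) of the shared ones. Among peaks of 1500 bp or more the shares were 72.7% (8 of 11; 43.4 to 90.3%) and 68.4% (184 of 269; 62.6 to 73.7%). Among peaks of 625 to 999 bp they were 1.35% (0.757 to 2.41%) and 1.20% (0.926 to 1.56%), and among 500 bp peaks 0.136% and 0.131%. Of the 10 widest unshared peaks, 8 were repeated. At matched width the repeat share of unshared and shared peaks lay within each other's intervals, except at 1000 to 1499 bp, where 30.4% (19.1 to 44.8%) of 46 unshared and 21.1% (18.3 to 24.1%) of 754 shared peaks were repeated and the intervals overlapped.

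Unshared peaks were spread over all 20 chromosomes in nearly the same shares. On the autosomes the unshared share ran from 21.8% (18.7 to 25.2%) on chromosome 14 to 28.8% (24.3 to 33.7%) on chromosome 19, and chromosome 15 had 28.5% (24.9 to 32.3%). The intervals of 19 of the 20 chromosomes held the background of 24.5%, and that of chromosome 15 did not. Among 20 intervals at 95% such a miss can come from counting error, and whether chromosome 15 differed was not tested. The X chromosome held 39 unshared peaks among 161 (24.2%; 18.3 to 31.4%). Unshared peaks were as sparse there as shared ones, with 0.243 per Mb where the autosomes had 1.27. The ratio was 0.192 for unshared peaks (95% exact interval 0.136 to 0.263), and for shared peaks the ratio was 0.194 (0.161 to 0.232).

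The shares that place and width alone give are averages of pooled shares, while the observed ones carry the counting error of each chromosome. A narrower range of the computed shares was therefore set by construction. When each peak was given the unshared share of its decile of the file and its width class (500 bp or wider), chromosome 19 came to 26.8%, chromosome 15 to 25.5% and chromosome 14 to 24.0%, a calculation added after the data were seen. The observed shares differed from these by 2.01, 2.97 and -2.17 percentage points. The gap furthest from 0 was on the X chromosome, which came to 27.5% by place and width and was observed at 24.2%, or -3.25 percentage points. Over the 19 autosomes the unshared share and the share of 500 bp peaks had a Spearman rho of 0.63 (Pearson r = 0.67, and 0.50 without chromosomes 17 and 19). The density of protein-coding genes, from a RefSeq table of GRCm38 used by chromosome alone, had a rho of 0.13 with the unshared share (r = 0.12, and 0.33 without chromosomes 7 and 11). These are descriptions over chromosomes that share both libraries.

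**Figure D4:**
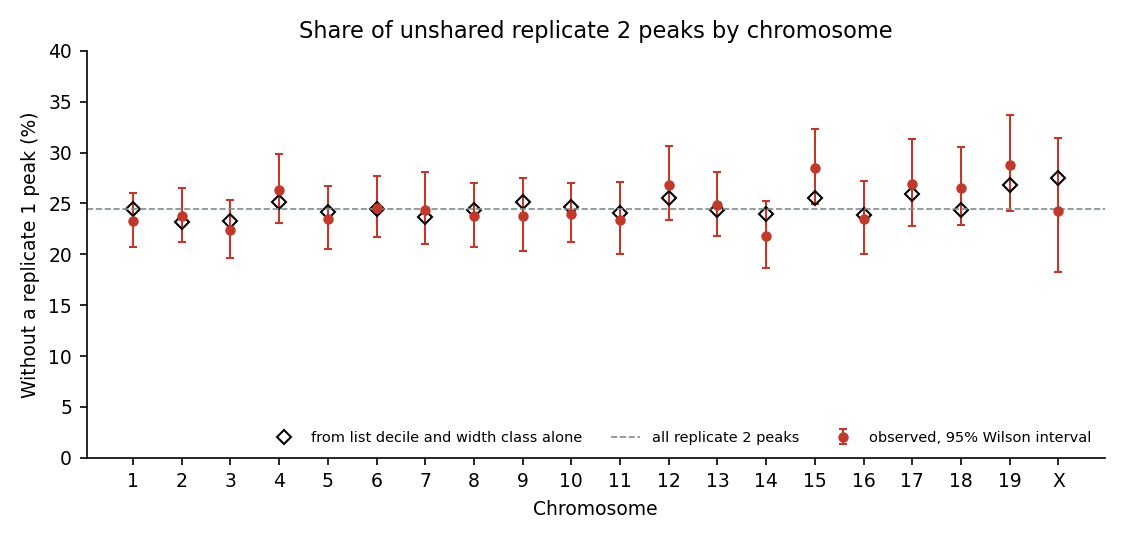
Share of replicate 2 peaks without a replicate 1 peak on each chromosome (red, 95% Wilson intervals), the share that list decile and width class alone give (open diamonds) and the share over all replicate 2 peaks (dashed, 24.5%). Chromosome 15 stands at 28.5% with an interval of 24.9 to 32.3% above the dashed line. The diamonds are averages of pooled shares and range less widely than the points by construction.

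Most unshared peaks stood alone. With replicate 2 peaks joined when their edges lay within 0.0125 Mb, 2064 unshared peaks (67.0%; 65.3 to 68.6%) had no other replicate 2 peak beside them, against 62.3% of shared peaks. The unshared share was 25.8% (24.9 to 26.8%) among lone peaks, 23.3% (21.7 to 24.9%) in pairs and 20.4% (16.6 to 24.9%) in clusters of 5 or more. Of 1339 pairs, 81 were made up wholly of unshared peaks, as were 5 of 352 triplets. No cluster of 4 or more was of this kind. Whether these numbers differ from what the background share would give was not tested. The most compact of these 5 triplets was at chr13:44273108-44278351, 5.24 kb in all, and it held no replicate 1 peak. The other triplets were at chr1:92450445-92463875, at chr12:35692909-35712780, at chr19:28720752-28731226 and at chr3:115902732-115919008, and the last 2 had 1 replicate 1 peak each between their peaks.

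Larger mixed clusters held several unshared peaks. A cluster at chr18:55060558-55117864 had 12 replicate 2 peaks, of which 5 were unshared, and 9 replicate 1 peaks. At chr3:141762067-141794772, 4 of 5 replicate 2 peaks were unshared, and 1 replicate 1 peak lay there. Unshared peaks were also counted in fixed windows of 1 Mb. The window at chr18:55000001-56000000 held 13 unshared among 49 replicate 2 peaks (26.5%) beside 63 replicate 1 peaks. It held the most, and windows with 10 unshared peaks lay at chr12:10000001-11000000 (of 20 replicate 2 peaks), at chr3:141000001-142000000 (32.3% of 31) and at chr7:78000001-79000000 (18.9% of 53). In 3 of these 4 windows the unshared peaks stood among 31 to 53 replicate 2 peaks, and the 95% Wilson interval of their share held the background of 24.5%. In the window of chromosome 12, 10 of 20 were unshared (29.9 to 70.1%), in a window picked out of 2142 for its number of unshared peaks. In all, 1448 windows held an unshared peak, 668 of them exactly 1, and 24 of the 1448 had no replicate 1 peak.

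Unshared peaks that followed one another along a chromosome with no shared peak between them formed 41 runs of 4 or more, with 185 of the 3081 peaks on 18 chromosomes. There were also 105 runs of 3, 443 runs of 2 and 1695 single peaks. Whether the number of long runs differs from what the background share of 24.5% would give was not tested. The runs of 4 or more spanned 23.9 kb to 6.38 Mb, with a median of 451 kb, and 8 of them held no replicate 1 peak. The longest, of 8 peaks, was at chr5:82832565-89214369. It spanned 6.38 Mb with 6 replicate 1 peaks, and one of its peaks lay 0.152 kb from replicate 1 while another lay 1.61 Mb from it. A run of 6 at chr7:59127411-61240286 spanned 2.11 Mb without any replicate 1 peak, and its peaks lay 39.5 kb to 1.31 Mb from replicate 1. Runs of 6 were also found at chr12:43109874-45937510, where all 6 peaks measured 500 bp, and at chr17:10515815-10960106, each with 6 replicate 1 peaks. The most compact run, of 4 peaks in 23.9 kb, was part of the cluster on chromosome 3 named above.

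**Figure D5:**
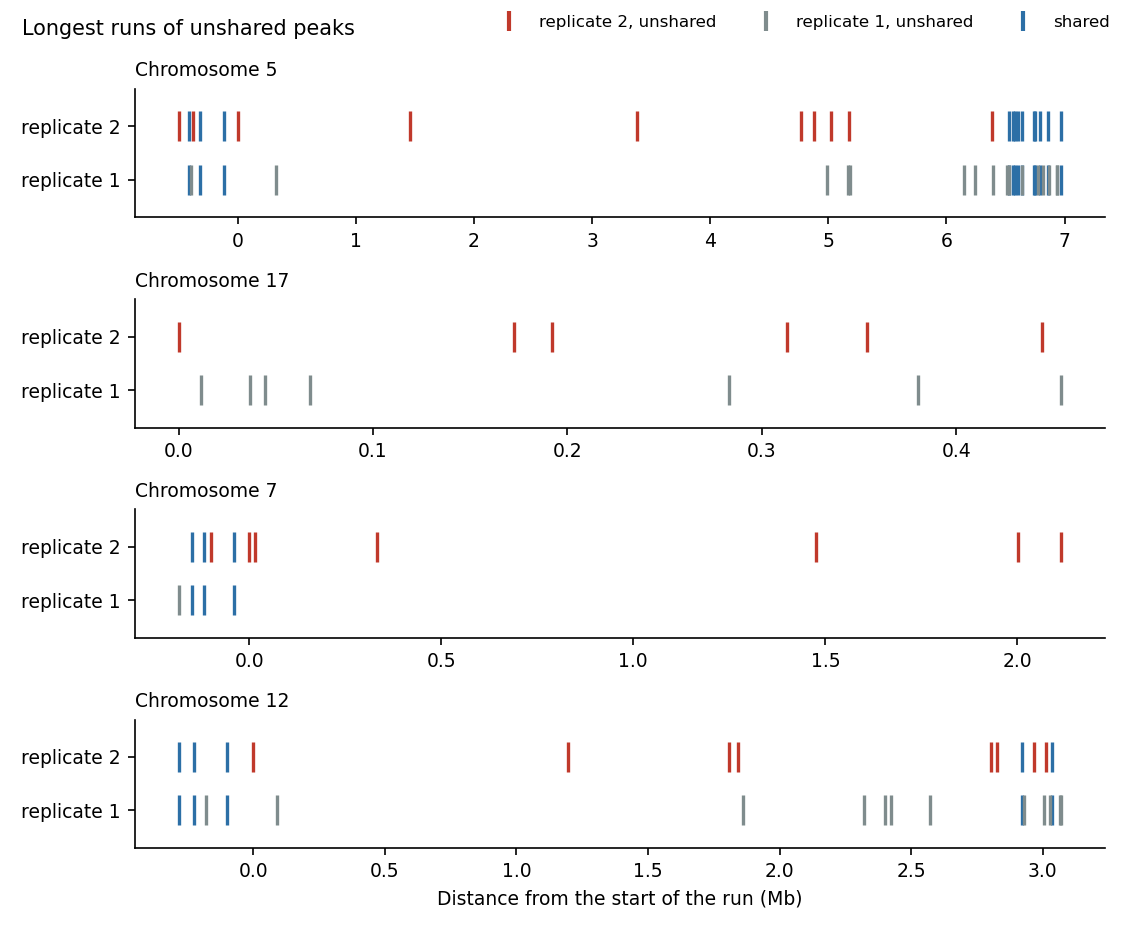
Peaks of both replicates along the 4 runs that hold the most unshared replicate 2 peaks, by distance from the start of each run, with a margin of 10% of the run on each side. Longest here means by number of peaks and not by span. Ticks mark peak centres. Red ticks are unshared replicate 2 peaks, grey ticks unshared replicate 1 peaks and blue ticks shared peaks of either list, and the run of chromosome 7 has no replicate 1 tick over 2.11 Mb.

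The 5 unshared peaks farthest from replicate 1 lay, by this choice, in stretches without replicate 1 peaks. Their nearest other replicate 2 peaks were also far, at 0.524 Mb or more, against a median of 29.2 kb over all unshared peaks. The farthest, at chr2:86947435-86948184 (750 bp, place 10035), was 1.83 Mb from replicate 1, and its nearest replicate 2 peak was a shared one at the same distance. The peak chrX:86794753-86795590 (838 bp) lay 1.65 Mb from replicate 1, and its row was listed more than once. The peaks at chr5:86210011-86210510 and chr5:84290590-84291217 lay 1.61 and 1.13 Mb away, both in the run of 8. The fifth, at chr7:60603642-60604141, lay 1.31 Mb away in the run of 6. Of these 5 peaks, the one on chromosome 2 had a shared peak as its nearest replicate 2 peak and the other 4 had an unshared one, at 0.524 to 1.85 Mb.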

How the data were processed

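Notch2 ChIP-seq of mouse embryonic kidney at E16.5 gave 1 peak list per immunoprecipitation. The submitters' processing notes name HOMER, Bowtie and SAMtools with the build mm9, and give no roles or versions. How peaks were called, filtered and ordered, and whether the input was used, is not stated in these sources. The deposited files hold 3 columns, chromosome, start and end, with no score or count, and were used as other values, that is, positions in base pairs, which are given counted from 1. Exact repeated rows (242 in replicate 1, 480 in replicate 2) were dropped. Gaps are measured between edges, clusters join edges within 12500 bp, and deciles follow file order. Shares have 95% Wilson intervals, medians exact order-statistic intervals and the X ratio an exact binomial interval. Read depth is unknown.

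The unshared peaks, lists and classes were chosen with earlier results of these data known. Regions were named by rule: the 10 widest, the 10 first in the file, the 5 farthest from replicate 1, 3 on each side of the threshold, runs of 4 or more (those of 6 or more and the most compact are printed) and the 3 windows of 1 Mb with most, with ties. Alternatives were tried for the overlap rule, the parts of the lists, repeated rows and joining. Gene density used 21631 protein-coding genes of a GRCm38 RefSeq table. Promoters, genes and sequence motifs were not analysed here, because no mm9 sequence or annotation was used. Overlaps and gaps were tested on simulated data against bedtools 2.31.1. Scripts ran in Python 3.11.15 with scipy 1.17.1, pandas 2.3.3, matplotlib 3.10.9 and numpy 2.4.6.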

Additional observations from a re-analysis of the deposited data

How the results depend on the processing

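The cause of the shifts below was not tested, except where the alternative's construction sets it, as a shorter list does. The number of unshared replicate 2 peaks was 4273 with 50% overlap of both peaks, 4239 with centres within 250 bp, 3011 with replicate 1 widened by 500 bp, 3120 with repeated rows counted and 3007 without clusters of 5 or more. It was 7578 against the first 25% of replicate 1 in list order, 5128 against the first 50%, 3785 against 75% and 3304 against 90% (25%, 75% and 90% were chosen after seeing the data), 6377 against the widest 50%, and 735 in the first 50% of replicate 2. Following that order (50% of both, centres, first 50% of replicate 1, widest 50% of replicate 1, first 50% of replicate 2), the unshared share was 34.0, 33.7, 40.7, 50.7 and 11.7%. The median distance was 6.57, 6.72, 32.9, 35.0 and 11.2 kb, and the share within 1 kb of replicate 1 was 32.2, 31.7, 2.83, 2.51 and 8.44%, and 3.85% with replicate 1 widened. With 50% of both and with centres, the added unshared peaks overlapped replicate 1 and were counted as having no distance to it. Their distance shifts were therefore set by construction. The share at 500 bp was 65.9, 61.0, 68.3, 64.8 and 39.7%. In the first 25% of the list the unshared share was 17.1, 21.2, 9.60, 21.6 and 4.83%, in the last 25% it was 51.4, 49.1, 68.8, 71.9 and 19.9%, and on the X chromosome 32.3, 32.3, 46.6, 60.2 and 11.5%. The share of 500 bp peaks exceeded that of the widest 25% (722 bp and more) by 28.7 percentage points, and by 19.5 with centres, 43.4 and 48.0 with the shorter replicate 1 lists and 18.1 in the first 50% of replicate 2, and kept this direction in all 8 alternatives. The share of lone unshared peaks was 63.7% with 50% of both, 63.3% with centres, 73.5% in the first 50% of replicate 2, 68.6% without clusters, 82.5% joined within 5 kb and 53.0% within 25 kb. Clusters made up wholly of unshared peaks numbered 86, and 194, 198, 228, 374 and 18 in the order above, and 55 joined within 5 kb. In all, 40 of 96 values stayed within their interval or within 1.5 times the count. These 40 include the rho with gene density, which has no interval and was judged by its small shift. It went from 0.13 to 0.18 with all genes in place of protein-coding ones. Leaving out a replicate leaves no comparison between lists. No paired analysis was possible because both lists belong to the same group. Unknown depth limits what absence from the replicate 1 list can say.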
